A study of Mus musculus with 4 samples.

Results

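The skin epithelium genes are 34 genes of the embryonic surface ectoderm and epidermis, out of 21562 protein-coding genes of the mouse annotation. The 34 genes were chosen by name and role, with earlier results of these data known. They are 8 transcription factors (Trp63, Grhl1, Grhl2, Grhl3, Ovol1, Ovol2, Klf4, Klf5), the 2 splicing regulators Esrp1 and Esrp2, 9 keratins (Krt5, Krt14, Krt15, Krt1, Krt10, Krt8, Krt18, Krt17, Krt19), 4 adherens and tight junction genes (Cdh1, Epcam, Cldn4, Cldn7), 6 desmosome genes (Dsp, Dsc3, Dsg3, Perp, Pkp1, Pkp3), the 14-3-3 protein gene Sfn, and 4 genes of the hemidesmosome and its basement membrane (Itga6, Itgb4, Lamb3, Col17a1). For each gene, H3K27ac peak intervals were collected within 100 kb of any of its protein-coding start sites. A promoter interval touched the stretch that reaches 2 kb upstream and 500 bp downstream of a protein-coding start site, and a distal interval touched no such stretch of any gene.

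The data are 4 lists of H3K27ac ChIP-seq peaks, 1 library for each of 4 sorted cell populations of the E14.5 mouse fetus: limb EGFP+, limb EGFP-, trunk EGFP+ and trunk EGFP-. All 4 carry the Col2a1-EGFP allele, a fluorescent sensor placed upstream of the cartilage collagen gene Col2a1, so that EGFP+ cells are Col2a1-active chondrocytes and EGFP- cells are a mixture of all other cells of the dissected tissue, the skin among them. By the study's methods, the fetuses were male and derived by tetraploid aggregation from 1 edited clone of the G4 embryonic stem cell line, with the allele homozygous, and sorted cells of several fetuses were pooled. No group has a replicate, so no value below carries a replicate error, and no difference between populations was tested. Limb and trunk libraries were read on different sequencing lanes according to their names, so that tissue and lane cannot be told apart, and the peak names of the trunk EGFP- list carry replicate number 2 where its label says 1.

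The surface ectoderm of the fetus first forms a simple epithelium with Krt8 and Krt18, then stratifies into an epidermis with a basal layer of Krt5 and Krt14 and suprabasal layers of Krt1 and Krt10. Trp63 is the master regulator of that program, and the grainyhead-like and Ovol factors maintain the epithelial state. Cells are joined to each other by E-cadherin (Cdh1), claudins and desmosomes, and to the basement membrane by hemidesmosomes. H3K27ac, acetylation of lysine 27 of histone H3, marks active promoters and enhancers. In a sorted mixture, fewer cells of a type and less mark per cell cannot be told apart.

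The lists held between 30716 intervals (trunk EGFP-) and 40899 intervals (limb EGFP+). The number of reads at each summit was recovered from its fold over background and its -log10 p, both within the list, and the median summit held 24 to 26 reads. Reads are extended to 200 bp, and at the lowest background of each library, 1.49 to 1.83 reads, a call needed 7 reads in the limb EGFP+, limb EGFP- and trunk EGFP+ lists and 8 in the trunk EGFP- list. Where the local background was higher, more reads were needed. A missing interval therefore does not show that the mark was missing. Intervals given for read counts are exact Poisson 95% intervals and cover counting error only.

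Most of the skin epithelium genes had no promoter interval in any population. No interval was called at the promoters of 23 of the 34, where 41.3% of all protein-coding genes had none. A promoter interval was present at 7 members in limb EGFP+ (all genes 54.4%), at 7 in limb EGFP- (51.6%), at 6 in trunk EGFP+ (52.6%) and at 5 in trunk EGFP- (52.7%). The genes without a promoter interval in any of the 4 lists included Trp63, the basal keratins Krt5 and Krt14, the suprabasal keratin Krt1, the simple epithelial keratins Krt8 and Krt18, and the adhesion genes Cdh1 and Epcam. Of the keratins that mark layers of the epidermis or the simple epithelium, Krt10 had promoter intervals, and it had them in all 4 lists. They lay beside an alternative start site near the 3′ end of Krt10, and none touched a window around the canonical start site.

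**Figure D1:**
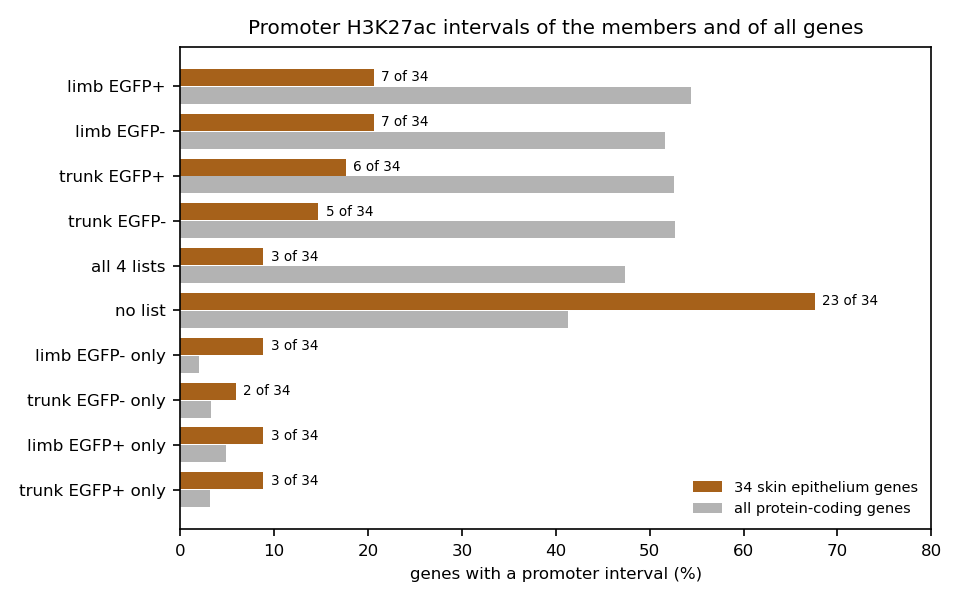
Percent of the 34 skin epithelium genes (brown) and of all 21562 protein-coding genes (grey) with a promoter H3K27ac interval in each list, in all 4 lists, in no list, or in 1 fraction of a tissue alone; the number of members stands beside each brown bar. Members are below all genes in each list (7, 7, 6 and 5 of 34), and 23 of 34 are in no list.

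Where members did have promoter intervals, they fell into 3 kinds. Klf4, Esrp2 and Krt10 (at an alternative start site only) had intervals in all 4 lists, a pattern of 47.4% of all genes. Grhl2, Grhl3 and Esrp1 had an interval in limb EGFP- and none in limb EGFP+ (all genes 2.02%), and Cldn4 and Pkp3 had an interval in trunk EGFP- and none in trunk EGFP+ (3.32%). Klf5, Krt17 and Itga6 had intervals in the EGFP+ list alone in limb (4.82%) and in trunk (3.21%), and so in both tissues (1.45%). No member had a promoter interval in the EGFP- list alone in both tissues (0.784%). Over either tissue, 5 members were EGFP- only (4.55%) and 3 were EGFP+ only (6.59%).

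Among the transcription factors, 4 of 8 had no promoter interval, where 41.3% of all genes had none. Klf4, a Krüppel-like factor of the differentiating epidermal barrier that other cell types also use, had the summits of most reads among the members in limb and in trunk EGFP+. Its summit held 111 reads in limb EGFP+ (95% interval 91.3 to 134), 67 in limb EGFP- (51.9 to 85.1), 78 in trunk EGFP+ (61.7 to 97.3) and 41 in trunk EGFP- (29.4 to 55.6). Both EGFP+ values were above the EGFP- value of their tissue, with intervals that did not overlap, and so was the local background, at 17.6 and 15.8 reads against 8.12 and 6.96. Fold over that background ran the other way and was lower in EGFP+, at 6.01 against 7.46 in limb and 4.71 against 5.28 in trunk. The EGFP+ lists held 5 (limb) and 4 (trunk) intervals around the Klf4 start sites, of which 1 in each list covered an alternative start site, and each EGFP- list held 1. No interval covered the canonical start site. The strongest summits lay 0.822 to 0.999 kb upstream of the canonical start site, and in limb EGFP+ the strongest interval was at chr4:55533113-55533755 (GRCm39, forward coordinates, upstream of the minus-strand gene).

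Klf5, a factor of proliferating basal epithelia, had EGFP+ promoter intervals of 21 reads in limb (13.0 to 32.1) and 20 in trunk (12.2 to 30.9). The trunk EGFP- list held an interval of 19 reads (11.4 to 29.7) whose edge lay 668 bp downstream of a start site, just past the promoter window and 65 bp from the nearest trunk EGFP+ interval, and it overlapped the limb EGFP+ interval. The EGFP+ only pattern of Klf5 in trunk thus rests on where the window ends. In limb EGFP- the nearest interval to Klf5 was 10.8 kb away.

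Of the 3 grainyhead-like factors, which drive epithelial junction genes and closure of the epidermis, Grhl2 and Grhl3 had an interval within 2 kb of a start site in EGFP- lists alone and Grhl1 had none. At Grhl2 the limb EGFP- interval (chr15:37233641-37234149) held 11 reads at its summit (5.49 to 19.7, -log10 p 4.12). The trunk EGFP- interval of Grhl2 (chr15:37233813-37234154) held 16 reads (9.15 to 26.0, -log10 p 5.78) at nearly the same summit, but its edge was 511 bp past the start site, so it counted as distal. The nearest EGFP+ intervals to Grhl2 were 22.7 kb away in limb and 25.0 kb away in trunk. At Grhl3 the limb EGFP- interval held 19 reads (11.4 to 29.7, -log10 p 6.68), 284 bp downstream of the start site, and the nearest trunk EGFP- interval was 78.7 kb away. EGFP+ intervals near Grhl3 lay 2.89 kb (limb) and 2.96 kb (trunk) from its start site. Grhl1, Ovol1 and Ovol2 had no promoter interval, and their nearest intervals lay 52.6 to 69.9 kb, 6.57 to 7.43 kb and 36.3 to 36.4 kb away.

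The splicing regulators Esrp1 and Esrp2 give epithelial cells their own isoforms of receptors and adhesion proteins. Esrp1 had an interval in limb EGFP- alone, with 13 reads (6.92 to 22.2, -log10 p 6.22), and the nearest interval in the other 3 lists was 44.2 to 44.4 kb away. The Esrp1 summit lay 0.812 kb downstream of the canonical start site, and the interval counted as a promoter interval through an alternative one. Esrp2 had an interval about 1.1 kb upstream of its start site in every list, with 14 reads in limb EGFP+ (7.65 to 23.5), 23 in limb EGFP- (14.6 to 34.5), 12 in trunk EGFP+ (6.20 to 21.0) and 31 in trunk EGFP- (21.1 to 44.0). The trunk values had intervals that did not overlap, with trunk EGFP- higher, whereas the limb values overlapped. The local background was higher in EGFP- as well, at 5.94 reads against 2.74 in trunk and 5.34 against 2.3 in limb. Fold over that background was higher in EGFP- in trunk, at 4.61 against 3.48. In limb it was lower in EGFP-, at 3.79 against 4.55.

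Among the keratins, 7 of 9 had no promoter interval (all genes 41.3%). Krt10, a keratin of suprabasal cells, was listed in all 4 populations with 66 (limb EGFP+), 60 (limb EGFP-), 44 (trunk EGFP+) and 41 reads (trunk EGFP-). Its fold over local background, 9.54, 7.96, 7.81 and 5.88 in that order, was above that of Klf4 (6.01, 7.46, 4.71 and 5.28). These intervals lay beside an alternative start site near the 3′ end of the gene, 2.83 to 2.91 kb downstream of the canonical start site, and no interval touched a window around the canonical one. Krt17, a keratin of periderm and appendages, had EGFP+ intervals of 18 reads in limb (10.7 to 28.4) and 12 in trunk (6.20 to 21.0). The nearest EGFP- intervals to Krt17 were 7.67 kb away in limb and 27.6 kb away in trunk.

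Krt5, Krt14, Krt15, Krt1 and Krt19 lay farther from any interval, in contrast to Krt10. The nearest one to Krt5 was 147 to 148 kb away in the limb lists and trunk EGFP+, and 264 kb away in trunk EGFP-. For Krt14 the distance was 45.6 to 81.1 kb, for Krt15 117 to 153 kb, for Krt1 88.8 to 126 kb and for Krt19 107 to 143 kb. Krt14, Krt15, Krt17 and Krt19 are neighbours, so these distances share intervals. Krt8 and Krt18, the adjacent keratin pair of simple epithelia, were closer to intervals, at 5.78 to 20.1 kb and 11.4 to 24.2 kb.

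Of the junction genes, Cldn4, a tight junction claudin, had a promoter interval only in trunk EGFP-, with 20 reads (12.2 to 30.9, -log10 p 6.76). A further trunk EGFP- interval of 19 reads lay 1.16 kb downstream of its start site, in an exon. Cdh1, Epcam and Cldn7 had no promoter interval, and the interval nearest to each was 16.1 to 34 kb, 21.5 to 21.9 kb and 12.8 kb away. Pkp3, a desmosomal plaque protein, had 9 reads in limb EGFP+ (4.12 to 17.1), 13 in limb EGFP- (6.92 to 22.2) and 24 in trunk EGFP- (15.4 to 35.7, -log10 p 10.2). Its limb intervals lay at different start sites and did not overlap each other, and in trunk EGFP+ the nearest interval was 16 kb away. Of the hemidesmosome genes, the integrin gene Itga6, which mesenchymal and vascular cells use as well, had EGFP+ intervals across its start site of 30 reads in limb (20.2 to 42.8, -log10 p 18.3) and 24 in trunk (15.4 to 35.7, -log10 p 13.2). The nearest EGFP- interval to Itga6 was 45.9 kb away in limb and 46.0 kb away in trunk.

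Several trunk EGFP- intervals began just past the 500 bp limit of the promoter window, which was noticed after the values were seen. With windows of 2 kb on each side of a start site, 10 members had an interval in trunk EGFP- instead of 5 (all genes 54.2%), while limb EGFP+ kept 7 (55.6%), limb EGFP- 7 (53.2%) and trunk EGFP+ 6 (all genes 54%). The added genes were Grhl2, Klf5, Dsp, Perp and Col17a1. Dsp, the plaque protein desmoplakin, had 20 reads (12.2 to 30.9), Perp, a desmosome protein under Trp63 control, had 13 (6.92 to 22.2), and Col17a1, a hemidesmosomal collagen, had 13 (6.92 to 22.2). Their highest -log10 q was 4.15 at Dsp, 1.82 at Perp and 3.0 at Col17a1. That of Grhl2 was 3.31 and that of Klf5 5.14, so that of the added genes only Klf5 reached a -log10 q of 5. These wider windows were not combined with a stricter threshold. In these windows 6 members were EGFP- only in trunk (Grhl2, Cldn4, Dsp, Perp, Pkp3, Col17a1; all genes 3.41%), 3 were EGFP- only in limb (Grhl2, Grhl3, Esrp1; 2.17%), and Grhl2 was EGFP- only in both tissues (0.914%). Over either tissue 8 of 34 were EGFP- only, where 4.67% of all genes were. In the same windows 3 members were EGFP+ only in limb (Klf5, Krt17, Itga6; all genes 4.6%) and 2 in trunk (Krt17, Itga6; 3.24%), and 20 of 34 were in no list (39.8%).

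**Figure D2:**
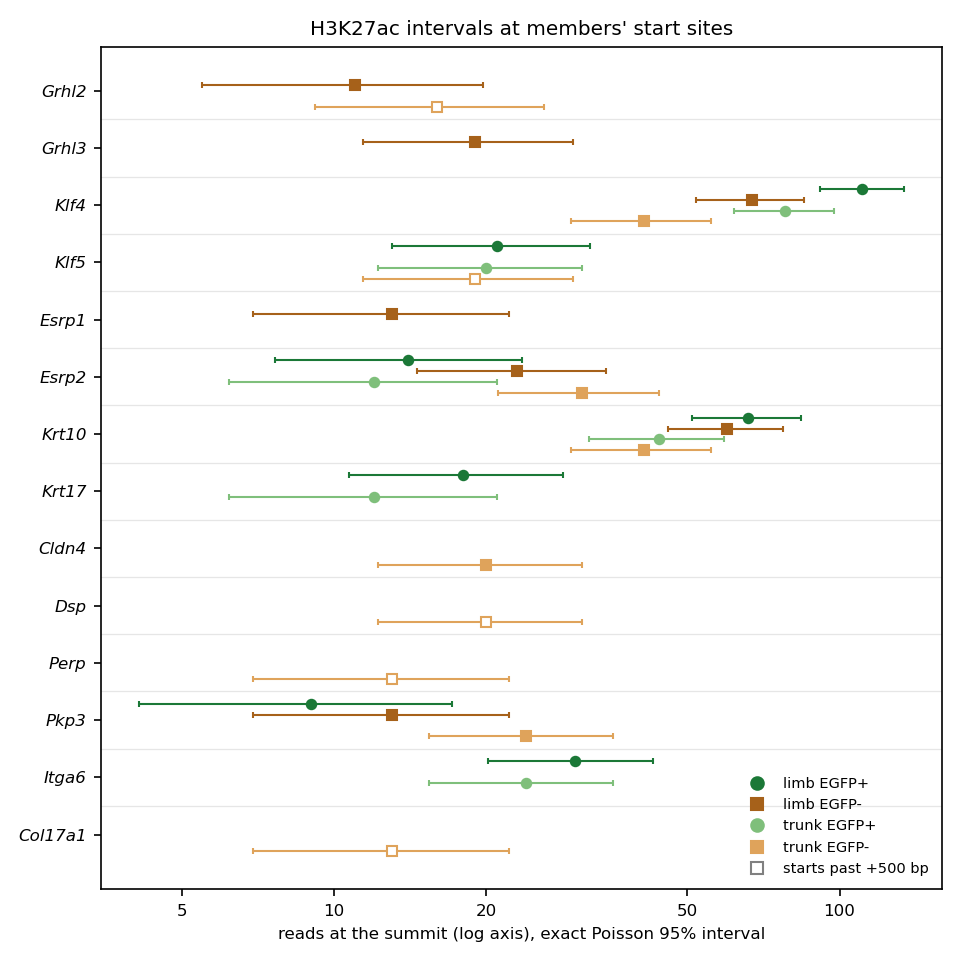
Reads at the summit of the strongest H3K27ac interval at each of the 14 members with an interval within 2 kb of a start site (log axis), with exact Poisson 95% intervals; filled symbols touch the promoter window and open symbols start more than 500 bp downstream. Klf4 and Krt10 stand above the rest, with 41 reads or more in every list, and the EGFP- only genes hold 11 to 24 reads. The Krt10 intervals lie beside an alternative start site and not at the canonical one.

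Distal intervals near the members were about as many in each list. Within 100 kb of a member's start site there were 62 distal intervals in limb EGFP+, 65 in limb EGFP-, 62 in trunk EGFP+ and 66 in trunk EGFP-, in merged windows of 6.44 Mb. The density was 9.62, 10.1, 9.62 and 10.2 intervals per Mb, against 11.3, 8.78, 9.68 and 7.31 in the same windows of all genes. These intervals were 0.272% of all distal intervals in limb EGFP+, 0.366% in limb EGFP-, 0.321% in trunk EGFP+ and 0.464% in trunk EGFP-. The list of trunk EGFP-, the shortest, thus held as many intervals near members as the longest. The median summit near members held 16 to 18 reads, and that of all distal intervals 16 to 18.

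Joined over the lists, the distal intervals formed 154 regions near members. Of these, 97 (63.0%) were in exactly 1 list, as were 61.9% of all distal regions, and 25 (16.2%) were in all 4, against 10.3% of all distal regions. A region was called EGFP- only or EGFP+ only if it held an interval of that fraction that touched no interval of the other fraction in the same tissue. Near members, the EGFP- only regions numbered 62 and the EGFP+ only regions 61, which made the EGFP- share 50.4% (exact binomial 95% interval 41.2 to 59.5%). Over the genome 14880 of 34998 such regions, or 42.5%, were EGFP- only.

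Of the 34 members, 24 had an EGFP- only region within 100 kb (all genes 60.4%) and 24 had an EGFP+ only region (65.5%). The members had more EGFP- only than EGFP+ only regions in 14 cases (all genes 24.7%), more EGFP+ only in 10 (39.9%), as many of each in 4 (11.6%), and none of either in 6 (23.8%). Cldn4 had the most EGFP- only regions, 8 against 5 EGFP+ only, in a window with 6 other genes, followed by Cdh1 with 6 against 3, and Trp63 and Lamb3 with 5 against 3 each. Itgb4, the other integrin of the hemidesmosome, had 7 EGFP+ only regions and no EGFP- only region, in a window shared with 9 other genes. Krt5, Krt15, Krt1, Krt19 and Pkp1 had no distal interval within 100 kb in any list.

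**Figure D3:**
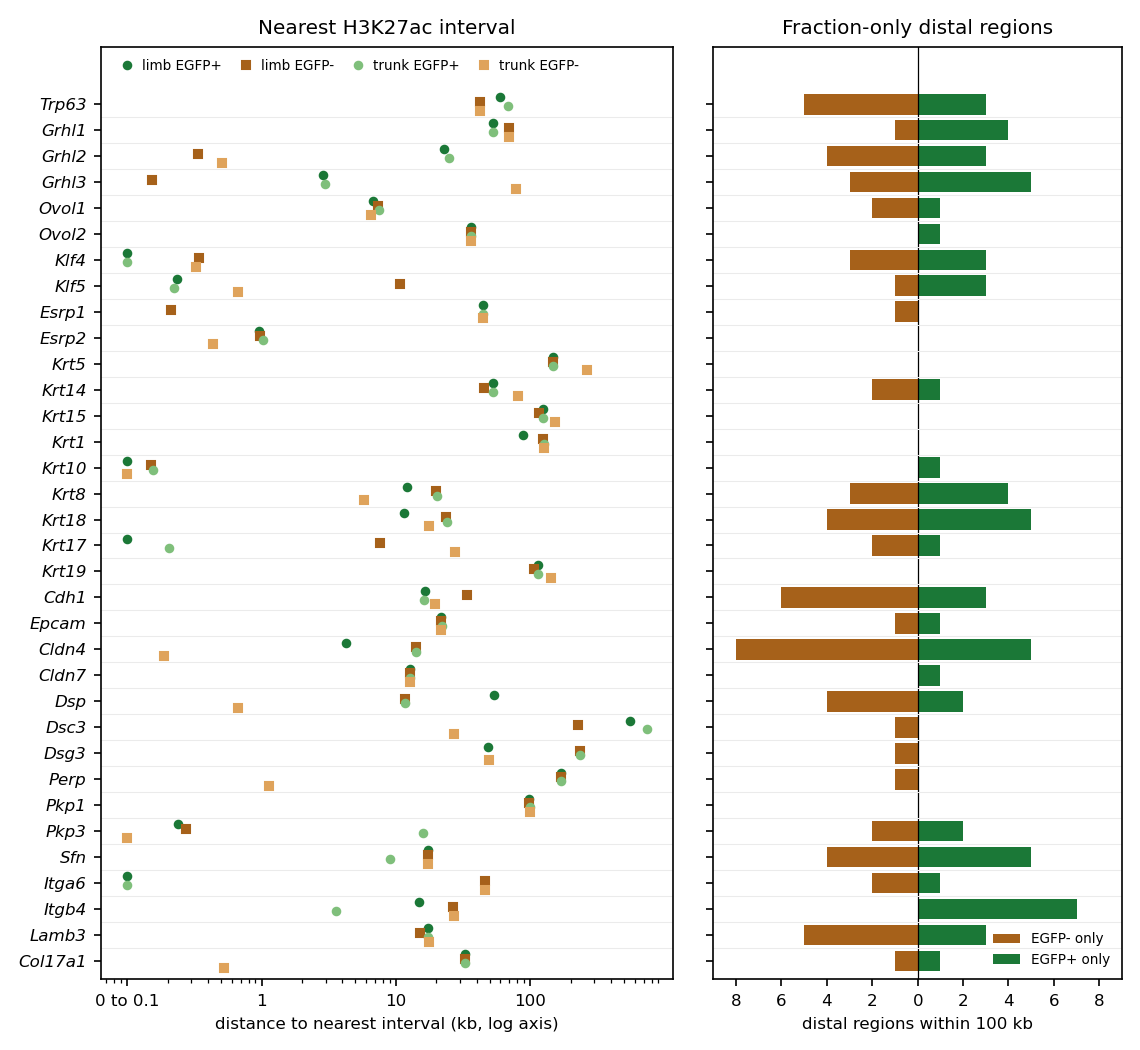
Left, distance from each member's nearest start site to the nearest H3K27ac interval of each list (kb, log axis, values under 0.1 drawn at 0.1); right, number of EGFP- only regions (brown, to the left) and EGFP+ only regions (green, to the right) within 100 kb. Krt5, Krt15, Krt1, Krt19 and Pkp1 have no bar on the right. Dsp, Dsc3, Perp and Col17a1 are among the members whose nearest interval is in trunk EGFP-. Klf5, Krt17, Itga6 and Itgb4 are among those whose nearest interval is in an EGFP+ list.

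Many of those regions lie nearer to another gene. When a region was kept only if the nearest protein-coding start site was a member's, 29 EGFP- only and 25 EGFP+ only regions were left (53.7% EGFP- only, 39.6 to 67.4%). The 29 EGFP- only regions belonged to 15 members, and 5 of these, Krt8, Dsp, Dsc3, Perp and Col17a1, were nearest to no EGFP+ only region. The 25 EGFP+ only regions belonged to 12 members, of which Krt18 and Itgb4 were nearest to no EGFP- only region. Krt8 and Krt18 are adjacent, and the regions nearest to each lay in the stretch between their start sites. Within 100 kb, Krt8 had 3 EGFP- only and 4 EGFP+ only regions, and Krt18 4 and 5. Trp63, Grhl2, Grhl3, Klf4, Klf5, Cdh1, Epcam, Cldn4, Itga6 and Lamb3 were nearest to regions of both kinds. Of the 29 EGFP- only regions, 15 lay in introns, 1 in an exon and 13 between genes, and 6 lay within 2 kb of a start site, as none of the 25 EGFP+ only regions did. These 6 are the trunk EGFP- intervals at Grhl2, Klf5, Cldn4, Dsp, Perp and Col17a1 described above, past the 500 bp limit of the promoter window. Without them the EGFP- only regions did not outnumber the EGFP+ only ones. In 4 of the 29, an EGFP+ interval of the other tissue was present, and in 3 an EGFP+ interval of the same tissue lay within 1 kb. Their strongest summits held 9 to 21 reads with a median of 14, and those of the EGFP+ only regions 7 to 35 with a median of 11.

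**Figure D4:**
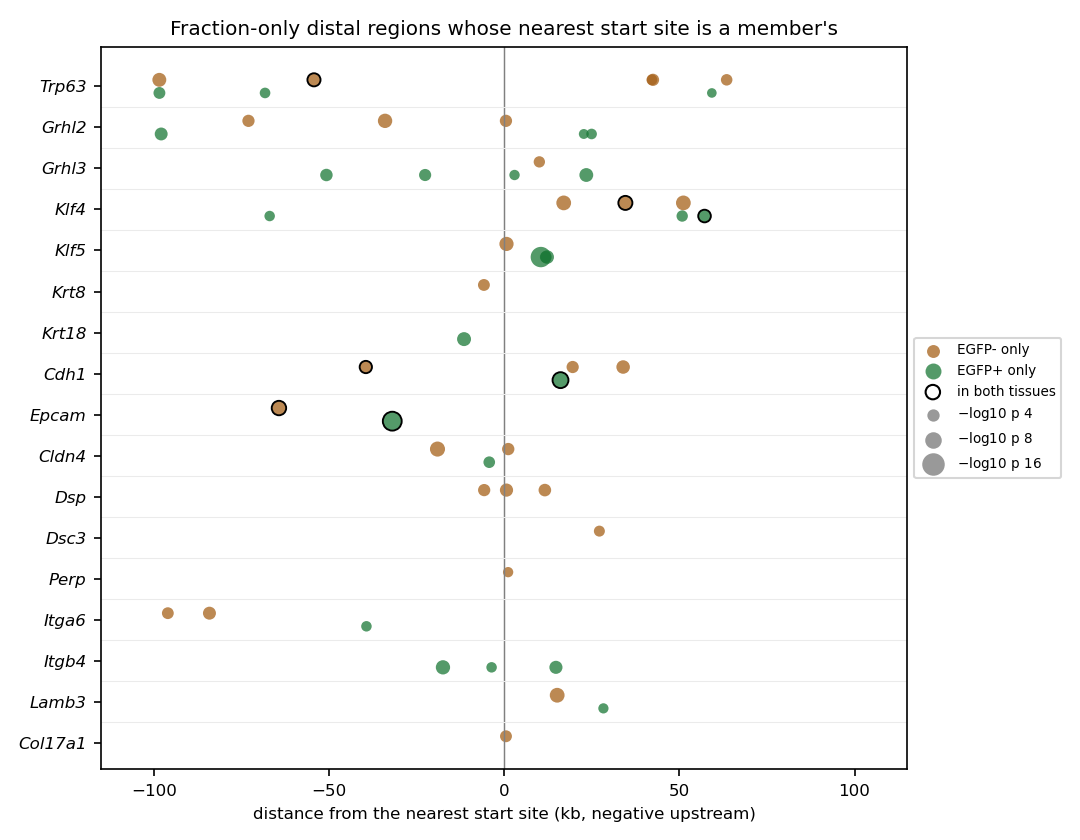
Position of the 29 EGFP- only (brown) and 25 EGFP+ only (green) distal regions relative to the nearest member's start site (kb, negative upstream), by member; the area of a point is proportional to the highest -log10 p, and a black ring marks regions with fraction-only intervals in both tissues. The 4 ringed EGFP- only regions are at Trp63, Klf4, Cdh1 and Epcam, and the highest -log10 p, 16, is that of an EGFP+ only region in Klf5.

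By -log10 p, the 6 leading EGFP- only regions of members were near Cldn4, Lamb3, Klf4, Epcam and Grhl2. The sequences of 300 bases around the summit of the 4 highest are given below, to show what the leading EGFP- only regions contain, followed by 3 chosen after their values were seen: those of Epcam and Trp63, which were EGFP- only in both tissues, and that of Grhl2 just downstream of its start site. They are from GRCm39, forward strand, in lower case, with matches on either strand to the motifs described further on in capitals.
Cldn4, 19.0 kb upstream, chr5:134994866-134995165: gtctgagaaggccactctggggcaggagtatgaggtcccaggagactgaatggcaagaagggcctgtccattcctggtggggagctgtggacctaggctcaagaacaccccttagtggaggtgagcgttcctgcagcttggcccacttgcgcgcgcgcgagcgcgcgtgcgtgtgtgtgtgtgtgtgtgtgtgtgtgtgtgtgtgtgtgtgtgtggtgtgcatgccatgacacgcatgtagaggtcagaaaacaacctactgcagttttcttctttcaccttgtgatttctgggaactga
Lamb3, 15.1 kb downstream, intron, chr1:192999640-192999939: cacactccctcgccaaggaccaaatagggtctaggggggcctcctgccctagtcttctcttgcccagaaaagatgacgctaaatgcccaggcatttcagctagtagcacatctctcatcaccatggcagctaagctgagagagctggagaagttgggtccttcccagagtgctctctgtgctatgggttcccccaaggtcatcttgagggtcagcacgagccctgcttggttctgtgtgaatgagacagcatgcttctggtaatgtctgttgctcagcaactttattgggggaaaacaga
Klf4, 51.1 kb downstream, chr4:55480291-55480590: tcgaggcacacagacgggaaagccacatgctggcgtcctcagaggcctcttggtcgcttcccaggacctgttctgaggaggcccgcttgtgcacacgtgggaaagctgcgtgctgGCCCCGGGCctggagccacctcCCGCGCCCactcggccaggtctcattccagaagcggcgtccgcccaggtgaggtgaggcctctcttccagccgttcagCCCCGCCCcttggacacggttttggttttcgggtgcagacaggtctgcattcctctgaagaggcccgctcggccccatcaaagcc
Klf4, 17.0 kb downstream, chr4:55514532-55514831: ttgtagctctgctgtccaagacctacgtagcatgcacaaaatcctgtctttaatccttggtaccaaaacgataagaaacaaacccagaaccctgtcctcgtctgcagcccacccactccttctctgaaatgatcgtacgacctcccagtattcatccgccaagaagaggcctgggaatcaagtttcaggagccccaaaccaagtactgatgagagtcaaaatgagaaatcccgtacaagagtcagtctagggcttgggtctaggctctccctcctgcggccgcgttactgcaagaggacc
Epcam, 64.3 kb upstream, chr17:87878832-87879131: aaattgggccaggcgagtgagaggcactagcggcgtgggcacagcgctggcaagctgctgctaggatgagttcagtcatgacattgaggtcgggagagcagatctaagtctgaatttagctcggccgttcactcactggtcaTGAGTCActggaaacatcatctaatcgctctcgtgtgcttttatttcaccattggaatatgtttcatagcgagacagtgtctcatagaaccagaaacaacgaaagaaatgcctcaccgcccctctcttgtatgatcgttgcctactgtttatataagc
Trp63, intron, 54.3 kb upstream of the nearest start site, chr16:25566072-25566371: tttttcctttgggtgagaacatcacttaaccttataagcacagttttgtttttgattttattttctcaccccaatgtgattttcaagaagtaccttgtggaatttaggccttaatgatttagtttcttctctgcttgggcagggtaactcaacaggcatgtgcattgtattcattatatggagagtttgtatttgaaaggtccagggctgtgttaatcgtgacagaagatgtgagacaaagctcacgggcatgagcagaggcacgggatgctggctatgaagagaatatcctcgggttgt
Grhl2, intron, 0.511 kb downstream, chr15:37233878-37234177: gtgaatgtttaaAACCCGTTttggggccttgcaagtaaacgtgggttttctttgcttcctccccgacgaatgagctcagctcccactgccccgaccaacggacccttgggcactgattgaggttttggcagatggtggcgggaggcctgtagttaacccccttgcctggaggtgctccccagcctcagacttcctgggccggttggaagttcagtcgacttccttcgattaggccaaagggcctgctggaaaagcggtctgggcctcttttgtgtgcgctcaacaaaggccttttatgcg

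The region 19.0 kb upstream of Cldn4 was EGFP- only in trunk alone. It held 18 reads in trunk EGFP- (10.7 to 28.4, -log10 p 8.72) and no interval in trunk EGFP+, where the nearest was 33.1 kb away. In limb it was called in both fractions, with 16 reads in EGFP+ and 12 in EGFP-. Its sequence holds a long run of alternating T and G.

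The intronic region of Lamb3, a chain of the basement membrane protein laminin-332, held 17 reads in limb EGFP- (9.90 to 27.2, -log10 p 8.40) and was in no other list. Both Klf4 regions, 51.1 kb and 17.0 kb from the start site, held 16 reads, the farther in trunk EGFP- and the nearer in limb EGFP-. An EGFP+ interval of the same tissue lay 69 bp from the farther and 29 bp from the nearer, so that these regions are next to EGFP+ intervals and not apart from them.

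Epcam, an adhesion molecule of simple and basal epithelia, had regions of both kinds on its upstream side. The EGFP- only region, 64.3 kb upstream, held 15 reads in limb EGFP- (-log10 p 8.02) and 15 in trunk EGFP- (-log10 p 7.78). An EGFP+ only region of 1536 bp lay 31.9 kb upstream (chr17:87909938-87911473) with 24 reads in limb EGFP+ (15.4 to 35.7, -log10 p 13.7) and 11 in trunk EGFP+ (-log10 p 4.58). Both regions were thus called in the same fraction of both tissues, and 30.8 kb separated the EGFP- only region from the nearest EGFP+ interval. At Grhl2 a region 34 kb upstream held 21 reads in trunk EGFP- (13.0 to 32.1, -log10 p 7.92) and was in no other list.

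The other EGFP- only regions with intervals in both tissues were at Klf4, Trp63 and Cdh1. That of Klf4, 34.6 kb downstream, held 9 reads in limb and 13 in trunk. The Trp63 region, between its long and short promoters, held 13 reads in limb EGFP- (-log10 p 4.98) and 17 in trunk EGFP- (9.90 to 27.2, -log10 p 6.61), and the nearest EGFP+ interval of either tissue was 114 kb away. That of Cdh1, 39.5 kb upstream, held 9 reads in limb and 15 in trunk. A further region of Trp63, 98.4 kb upstream, was EGFP- only in limb with 13 reads, yet overlapped a trunk EGFP+ interval of 10 reads.

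Of the EGFP+ only regions nearest to members, the strongest was in an intron of Klf5, 10.5 kb downstream (chr14:99547067-99547797). It held 35 reads in trunk EGFP+ (24.4 to 48.7, -log10 p 16), while in limb it was called in EGFP+ with 34 reads and in EGFP- with 9. An intronic region of Cdh1, 16.1 kb downstream (chr8:107346065-107346738), was EGFP+ only in both tissues with 17 reads in limb and 20 in trunk. Introns of Cdh1 also held 3 EGFP- only regions, 1 of which (chr8:107373563-107373871) was EGFP- only in both tissues and lay nearer to the start site of Tango6. E-cadherin, the epithelial adhesion gene, thus held regions of both kinds.

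By tissue, 14 of the 62 EGFP- only regions near members had EGFP- intervals in both tissues (22.6%, all regions 22.0%), 22 in limb alone (35.5%, 44.5%) and 26 in trunk alone (41.9%, exact binomial interval 29.5 to 55.2%, 33.5%). Of the 61 EGFP+ only regions, 15 had EGFP+ intervals in both tissues (24.6%, all regions 30.8%), 22 in limb alone (36.1%, 39.1%) and 24 in trunk alone (39.3%, 30.1%). A region with fraction-only intervals in both tissues was found within 100 kb of 7 members for EGFP- (all genes 16.3%) and of 8 for EGFP+ (28%).

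Letters of 5 motifs were searched in 300 bases around the summits and around the canonical start sites (250 bases before to 50 after), on both strands, with overlapping matches of different motifs allowed. They were the grainyhead-like motif AACCNGTT, the TFAP2 motif GCCNNNGGC, the AP-1 motif TGANTCA, the KLF motif CCNCNCCC and the p53-family half-site, by which Trp63 binds. Of the 29 EGFP- only regions, 6 held the KLF motif (20.7%, all EGFP- only regions 26.7%), 4 the TFAP2 motif (13.8%, 9.25%), 3 the AP-1 motif (10.3%, 8.94%), 1 the grainyhead-like motif (3.45%, 2.15%) and 0 the p53-family half-site (11.7% of all). The grainyhead-like match is in the region just downstream of the Grhl2 start site printed above, and the AP-1 matches are at Dsp, Epcam and Trp63. Of the 25 EGFP+ only regions, 9 held the KLF motif (36.0%, all EGFP+ only regions 26.9%), 5 the TFAP2 motif (all EGFP+ only regions 9.75%), 4 the AP-1 motif (16%, 8.55%), and 0 the grainyhead-like motif (2.04% of all) or the p53-family half-site (11.0% of all).

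Around the start sites of the 34 members, 24 held the KLF motif (70.6%, all 21581 canonical start sites 54.8%), 10 the TFAP2 motif (29.4%, 16.9%), 6 the AP-1 motif (17.6%, 7.12%), 2 the grainyhead-like motif (5.88%, 2.07%) and 2 the p53-family half-site (5.88%, 7.92%). The AP-1 matches are at Cldn4, Epcam, Itgb4, Krt14, Krt15 and Krt17, the grainyhead-like matches at Ovol1 and Sfn, and the half-sites at Dsp and Krt5. Of these 10 genes, only Cldn4 and Krt17 had a promoter interval. A match is a description of letters and not of a bound site.

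Of 54 further genes of the epidermis that are no members, 27 had no promoter interval (all genes 41.3%) and 7 were in all 4 lists (47.4%). The promoter was EGFP- only at 3 in limb (5.56%, all genes 2.02%), at 11 in trunk (20.4%, 3.32%) and at 13 in either tissue (24.1%, 4.55%). It was EGFP+ only at 9 in limb (16.7%, all genes 4.82%), at 2 in trunk (3.7%, 3.21%) and at 10 in either tissue (18.5%, 6.59%). Lama3, another chain of laminin-332, was EGFP+ only in both tissues, with 11 reads in limb and 13 in trunk. Cldn1, Spint2 and Epha1, named after their values were seen, were EGFP+ only in limb and EGFP- only in trunk.

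Lists of other cell types were read in the same way, beside all genes at 41.3% in no list, 1.45% EGFP+ only in both tissues and 0.784% EGFP- only in both. All 16 chondrocyte genes had EGFP+ promoter intervals in both tissues (all genes 54.4% in limb and 52.6% in trunk). Of the 16, 10 (Sox5, Col9a1, Col9a3, Col11a2, Acan, Matn1, Matn3, Comp, Snorc, Fgfr3) were EGFP+ only in both. Of 10 dermis genes, 7 had an interval in each EGFP- list (all genes 51.6% in limb and 52.7% in trunk). Of these, 3 (Dpt, Dcn, Dkk2) were EGFP- only in both tissues. Of 10 endothelial genes, 8 had no interval and Tek was EGFP- only in both. Muscle genes had no interval in 8 of 10, neural and glial genes in 5 of 10 (Isl1 was EGFP+ only in both tissues), and notochord genes, which share Krt8, Krt18 and Krt19 with the members, in 8 of 9. Of 12 repressors of the epithelial state and mesenchymal genes, 9 were in all 4 lists (all genes 47.4%). Beside these, 23 of the 34 skin epithelium genes were in no list, and the part of cell numbers in this was not tested.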

How the data were processed

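H3K27ac ChIP-seq was done on limb and trunk cells of E14.5 Col2a1-EGFP fetuses sorted by EGFP, 1 library per group. By the study's methods, a like number of reads was drawn from each library. Per the labels and methods, the authors trimmed them with cutadapt 1.18, aligned them with Bowtie2 2.3.5.1 to GRCm39 and called peaks in each library alone with MACS2 2.2.7.1, with no control library named. Each deposited row gives a score, a fold over local background (a ratio), a -log10 p and a -log10 q.

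Here, summits that share both edges were taken as 1 interval, and the summit with the highest -log10 p gave the values. Reads were recovered from fold and -log10 p under the Poisson model, and for 100% of intervals a whole number of reads gave the deposited -log10 p within a relative error of 0.0001. Intervals were placed on the GENCODE annotation of GRCm39 (67388 protein-coding start sites). Overlap meant at least 1 bp. Fraction-only intervals of a tissue within 500 bp of each other were merged, and overlapping ones of limb and trunk were joined into a region. The work was done in Python 3.11.15 with scipy 1.17.1, pandas 2.3.3 and numpy 2.4.6, figures with matplotlib 3.10.9. The overlap, merging, read recovery and motif steps were tested on simulated data. With 1 library per group no test was run between groups. The members and lists were chosen with earlier results of these data known. All 34 members are named. Distal regions are named if they were among the 6 EGFP- only or 3 EGFP+ only regions of highest -log10 p nearest to a member, or EGFP- only in both tissues, and genes of other lists if they were in 1 fraction alone in both tissues. A result that falls under this rule is not reported here. Alternatives were thresholds, equal list lengths, start sites, windows and overlap rules.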

Additional observations from a re-analysis of the deposited data

How the results depend on the processing

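Of the values recomputed under alternatives, 97 kept their size (counts within 1.5 times, shares within the binomial interval) and 55 moved. With a -log10 q of at least 5, limb EGFP- promoters fell from 7 members to 3 and EGFP- only promoters in limb from 3 to 0, distal intervals near members were 38, 29, 23 and 22 (limb EGFP+, limb EGFP-, trunk EGFP+, trunk EGFP-), and 15 EGFP- only and 25 EGFP+ only regions were left, a share of 37.5% (all regions 35.1%). With a fold of at least 4, limb EGFP- promoters were 2, EGFP- only promoters in limb 0, EGFP+ only promoters in limb 5, distal intervals 39, 31, 22 and 19, regions 19 and 31, the EGFP- share 38.0% (all regions 37.9%), and EGFP- only regions with EGFP- intervals in limb alone 63.2% and in trunk alone 21.1%. With the 20000 strongest intervals of each list, promoters were marked at 3 members in limb EGFP+ and at 3 in limb EGFP-. There 1 promoter was EGFP- only in limb and 1 in both tissues (Esrp2), 1 was EGFP+ only in limb and 1 in both tissues (Itga6), distal intervals were 23, 24, 20 and 29, and regions 17 and 11. The EGFP- share was 60.7% (all regions 50.7%), and 11.8% of the EGFP- only regions had EGFP- intervals in both tissues, 23.5% in limb alone and 64.7% in trunk alone. The EGFP- share thus lay on either side of 50.4% with the threshold, and moved with that of all regions. In each of these 3 settings the genes EGFP- only in trunk were Esrp2 and Pkp3, without Cldn4. With a fold of at least 4, however, Esrp2 and Pkp3 were EGFP+ only in limb, beside Klf5, Krt17 and Itga6. The genes EGFP+ only in trunk were Klf5 and Itga6, without Krt17. These 3 settings keep fewer intervals by construction.

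With promoter windows of 1 kb on each side, trunk EGFP- had 9 members, 6 were EGFP- only in trunk and 1 in both tissues (Grhl2). With windows of 2 kb on each side, added after the data were seen, these numbers were 10, 6 and 1. Within 50 kb there were 34, 37, 35 and 39 distal intervals and 32 EGFP- only and 30 EGFP+ only regions. With only those intervals whose nearest start site was a member's, there were 22, 20, 20 and 28, and 29 and 25 regions. With 1 start site per gene, with no opposite interval allowed within 1 kb, or with an overlap of 50% required, no value moved, although Klf5 left the genes EGFP+ only in both tissues under the first and the second. Under the first, Esrp1 also left the genes EGFP- only in limb.

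No paired analysis was possible because each group has 1 library and no result comes from a test. With 1 library per group, no replicate could be left out. A summit of 7 or 8 reads was the smallest that could be called at the library background, and more were needed where the local background was higher. The EGFP- only regions nearest to members, of 9 to 21 reads (median 14), thus lie near the limit of detection. So do many of the EGFP+ only regions, of 7 to 35 reads (median 11). For both kinds, a missing interval in the other fraction does not show a missing mark.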
